A study of Mus musculus with 6 samples.

Results

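The negative feedback genes of the mitogen-activated protein kinase (MAPK) pathway were examined by RNA-seq in mouse CD8+ T cells given an inhibitor of the histone demethylase LSD1. The 10 genes were chosen by name, as 6 dual-specificity phosphatase genes (Dusp1, Dusp2, Dusp4, Dusp5, Dusp6 and Dusp10) and 4 genes of the Sprouty and Spred families (Spry1, Spry2, Spred1 and Spred2), and all 10 are among the 16281 genes of the count table. The cells came from spleens of OT1 mice, which are C57BL/6 animals with the transgene Tg(TcraTcrb)1100Mjb for a T-cell receptor that recognizes an ovalbumin peptide. The age of these donor animals was not given in the sources used here. Every culture was activated for 48 h on anti-CD3 with soluble anti-CD28 (each at 2 μg/ml) and IL-2 at 20 ng/mL, and was then expanded with IL-2 for 3 days. During both phases, 3 cultures received GSK2879552 (GSK) at 0.5 μM and 3 received vehicle (Veh), and the study describes 3 OT1 mice as the source of the cells. Both groups therefore carried the same transgene and the same stimulation, and no unstimulated culture is among the 6 samples.

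A T-cell receptor or a growth factor receptor switches on the small GTPase Ras, which starts the kinase relay of RAF, MEK and ERK, while the parallel JNK and p38 branches answer to costimulation, cytokines and stress. The pathway limits itself, because the kinases induce genes whose products switch them off. The Dusp phosphatases remove the phosphate groups from the activation loop of the MAP kinases, and the Sprouty and Spred proteins act further up, between the receptor and RAF. In T cells several of these genes belong to the early response to antigen, so that their RNA is often read as a trace of recent signaling. RNA level does not give the protein level or the phosphorylation of the kinases. The study also probed phosphorylated ERK by immunoblot in GSK and Veh cells. It reports no effect of GSK on the main signaling routes below the IL-2 receptor. These blots were not analysed here.

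At an adjusted p under 0.05 by edgeR's quasi-likelihood test, 4 of the 10 feedback genes were higher with GSK and 1 was lower, and 5 did not pass. Over all genes tested the shares were 16.6% higher and 15.5% lower. Dusp1 and Dusp4 were also past the study's fold change of 1.5 in the upward direction, where 2.22% of all genes tested lie, and Spry2 was past it downward, where 4.09% lie. Dusp5 and Spred1 rose by less than 1.5-fold. Taking both directions together, 3 of the 10 genes and 6.32% of all genes tested were past both thresholds. The 10 genes were chosen with earlier results of these data known, so that these shares describe them and are not a test. The fit used the 11698 genes left after a filter on low counts, and all 10 genes were among them. Levels are given in CPM, counts scaled to a common library total after TMM normalization, as mean ± SD of the 3 samples of a group. A two-sided exact permutation test of 1 gene would have 0.1 as its smallest p in this design and was not used.

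The total counts lay between 18288447 and 19846720 per sample, and the median log2 fold change over all genes tested was -0.0039. RNA of Kdm1a, which encodes LSD1, the target of the inhibitor, had levels of 92.8 ± 5.45 (Veh) and 87.1 ± 3.54 CPM (GSK) and did not pass the test (adjusted p = 0.22). The inhibitor acts on the protein, so that this value does not check the treatment. The CD8 T cell markers summed to between 2333 and 2466 CPM in Veh and between 2158 and 2314 CPM in GSK. Of these 7 markers, Cd2 rose, and Cd3d, Cd3e, Cd3g and Cd5 fell, with log2 fold changes between -0.50 and 0.15. The B cell markers summed to between 6.31 and 8.21 CPM in Veh and between 7.93 and 9.67 CPM in GSK, with 4 of the 7 below 10 counts in every sample. Cd79b made up most of these sums, with means of 6.51 (Veh) and 4.90 CPM (GSK). Its log2 fold change of -0.41 did not pass (adjusted p = 0.070). Cd22 was the one that rose (log2 fold change 2.65, adjusted p = 1.5e-04). The myeloid markers summed to between 10.3 and 16.5 CPM over both groups, of these Fcgr3 fell, and Adgre1, Csf1r and Cd14 had at most 5 counts in any sample. Of the NK cell markers, which summed to between 9.56 and 10.7 CPM in Veh and between 12.8 and 17.0 CPM in GSK, Klre1 rose and Ncr1 had at most 1 count. Stromal and endothelial markers ranged from 58.4 to 82.0 CPM, of which Pecam1 made up most, and Cdh5 was at 0 in all GSK samples. The dendritic list, with 2 of its 4 genes in the table, and the erythroid list reached at most 1.21 CPM. CD4 T cell markers lay between 39.2 and 52.9 CPM, of which Zbtb7b made up most, and Cd4 itself had means of 1.19 (Veh) and 0.967 CPM (GSK). The part of these lists in the results below was not tested. In such bulk samples fewer cells that express a gene and less of its RNA per cell cannot be told apart.

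The start regions of 3 feedback genes that passed the test are shown first, since induction of such genes by MAPK signaling is known to run through their promoters. RefSeq (GRCm38.p6) gave the 250 bases before the annotated start for 9 of the 10 genes, and none is printed for Dusp4. Capitals mark a cyclic AMP response element (CRE, TGACGTCA) in Dusp1 and CArG boxes, the motif bound by serum response factor, in Dusp5. Spry2, the gene that fell, held none of the motifs searched, and neither did Spred1, which rose and is not printed. The windows lie at chr17:26508473-26508722 (minus strand), chr19:53528895-53529144 (plus strand) and chr14:105896820-105897069 (minus strand), and each reads 5′ to 3′ along the gene's strand.
Dusp1: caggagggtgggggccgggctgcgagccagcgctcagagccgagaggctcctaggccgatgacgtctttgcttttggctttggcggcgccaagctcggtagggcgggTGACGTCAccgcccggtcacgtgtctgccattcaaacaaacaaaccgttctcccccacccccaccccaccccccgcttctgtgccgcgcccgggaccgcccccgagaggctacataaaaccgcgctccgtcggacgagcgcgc
Dusp5: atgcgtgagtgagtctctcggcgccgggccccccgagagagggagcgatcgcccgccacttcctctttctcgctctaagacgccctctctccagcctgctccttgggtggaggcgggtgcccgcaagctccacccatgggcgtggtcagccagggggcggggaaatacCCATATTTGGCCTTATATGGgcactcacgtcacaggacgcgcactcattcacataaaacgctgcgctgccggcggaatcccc
Spry2: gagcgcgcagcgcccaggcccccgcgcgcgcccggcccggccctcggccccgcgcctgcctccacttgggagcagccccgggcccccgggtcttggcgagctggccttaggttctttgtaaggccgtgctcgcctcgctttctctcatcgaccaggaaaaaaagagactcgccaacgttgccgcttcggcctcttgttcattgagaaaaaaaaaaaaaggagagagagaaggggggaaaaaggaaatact

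On both strands, 5 motifs were searched: the CRE (TGACGTCA), the AP-1 site (TGANTCA), an ETS site (CCGGAAG), the CArG box by its usual form, and a TATA box (TATAAA). Dusp1 and Dusp5 of the 9 genes held a match in this window. Over all promoters, 6.75% held an AP-1 site, 6.91% an ETS site and 12.4% a TATA box. The shares for the CRE and the CArG box are given below. The share of all promoters with any of the 5 motifs was not computed, so the count of genes with a match has no background beside it. The shorter CRE core (TGACG), found in 17.8% of all promoters and contained in the full CRE, was searched as well and occurred in Dusp1, Dusp5 and Spred2. The CRE of Dusp1 began 143 bases before the start, and a CRE was present in 1.55% of the 32841 RefSeq promoters of the same length. The CArG boxes of Dusp5 began 82 and 72 bases before the start, side by side without overlapping each other or another motif searched. At least 1 CArG box was present in 1.47% of all promoters and at least 2 in 0.0183%. The windows of Dusp1, Dusp5 and Spry2 held 68.4%, 64% and 62.4% G and C, against a median of 52.4% over all promoters. A match describes these letters, and binding at these sites was not analysed here.

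Among the nuclear phosphatases, Dusp1 changed with the smallest p of the 10 genes. Dusp1 (Entrez gene 19252, chr17:26505591-26508472, minus strand, 4 exons) encodes MKP-1, which acts mainly on p38 and JNK. Its level was 11.5, 9.76 and 10.04 CPM in Veh replicates 1, 2 and 3 and 21.1, 18.9 and 22.9 CPM in the GSK replicates. The lowest GSK sample thus stood well above the highest Veh sample. Dusp1 rose 2.01-fold, from 10.4 ± 0.952 to 20.97 ± 2.01 CPM (log2 fold change 1.01 with a standard error of 0.10, adjusted p = 2.8e-05), with a 95% interval of the fold from 1.72 to 2.35. It ranked 117th of all genes tested by p. In GENCODE M21 the exons of Dusp1 share 11 bases, or 0.332% of their length, with those of Ergic1 on the opposite strand, a gene of vesicle transport. Ergic1 itself rose from 91.2 ± 3.67 to 136 ± 16.0 CPM (log2 fold change 0.58, adjusted p = 3.3e-04). Whether the counting used the strand is not given in the sources used here, and the RefSeq regions of both genes do not overlap.

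Dusp4 (Entrez gene 319520, chr8:34807610-34819894, plus strand) encodes the closely related MKP-2, a nuclear phosphatase of ERK and JNK. Its level was 20.2, 23.4 and 27.4 CPM in the Veh replicates and 46.8, 36.3 and 57.2 CPM in the GSK replicates. Here too every GSK sample was above every Veh sample, but the spread within GSK was wide, with replicate 2 the lowest and replicate 3 the highest, as for Dusp1. Dusp4 rose 1.98-fold (log2 fold change 0.98 with a standard error of 0.20, adjusted p = 0.014), with an interval from 1.40 to 2.78. Without Veh replicate 2 its adjusted p was 0.055, with a log2 fold change of 0.97, and it was not called.

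Dusp2 (Entrez gene 13537, chr2:127336159-127338377, plus strand) encodes PAC-1, first known as a phosphatase of activated T cells. Its level was 35.1, 38.4 and 46.4 CPM in the Veh replicates and 32.9, 34.6 and 43.2 CPM in the GSK replicates. The groups overlapped over most of their range, and replicate 3 was the highest of each. Its log2 fold change of -0.12 (standard error 0.13) did not pass (adjusted p = 0.53). The interval of the fold ran from 0.753 to 1.13 and thus held no change of 1.5-fold in either direction.

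Dusp5 and Dusp6 encode phosphatases that act on ERK, the former in the nucleus and the latter in the cytoplasm. Dusp5 (Entrez gene 240672, chr19:53529145-53541809, plus strand) was at 79.7, 82.2 and 82.2 CPM in the Veh replicates and at 99.3, 99.7 and 95.3 CPM in the GSK replicates. Within each group its samples lay less than 5 CPM apart, and the groups were clearly separate although the step was small. Dusp5 rose 1.21-fold, from 81.4 ± 1.41 to 98.1 ± 2.42 CPM (log2 fold change 0.27 with a standard error of 0.047, adjusted p = 9.4e-04), with an interval from 1.12 to 1.29. In GENCODE M21 an antisense transcript without a row in the table overlaps it.

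Dusp6 (Entrez gene 67603, chr10:99263231-99267489, plus strand) encodes MKP-3, a direct feedback target of ERK in many cell types. It was at 57.5, 66.6 and 65.0 CPM in the Veh replicates and at 67.5, 69.3 and 69.1 CPM in the GSK replicates. All GSK samples lay above all Veh samples, but the gap to Veh replicate 2 was under 1 CPM. A log2 fold change of 0.12 (standard error 0.060) did not pass (adjusted p = 0.14), and the interval of the fold ran from 0.994 to 1.19. The predicted gene Gm34921 overlaps its region in RefSeq.

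Dusp10 (Entrez gene 63953, chr1:184034381-184075636, plus strand) encodes MKP-5, which acts on JNK and p38. It was at 12.9, 11.5 and 12.5 CPM in the Veh replicates and at 12.9, 13.0 and 9.75 CPM in the GSK replicates. GSK replicates 1 and 2 lay at the upper end of the Veh range and GSK replicate 3 below all other samples. Its log2 fold change of -0.054 (standard error 0.12) did not pass (adjusted p = 0.77), and the interval of the fold ran from 0.8004 to 1.16. The gene 1700056E22Rik lies within its region on the opposite strand and shares 0 exon bases with it.

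**Figure D1:**
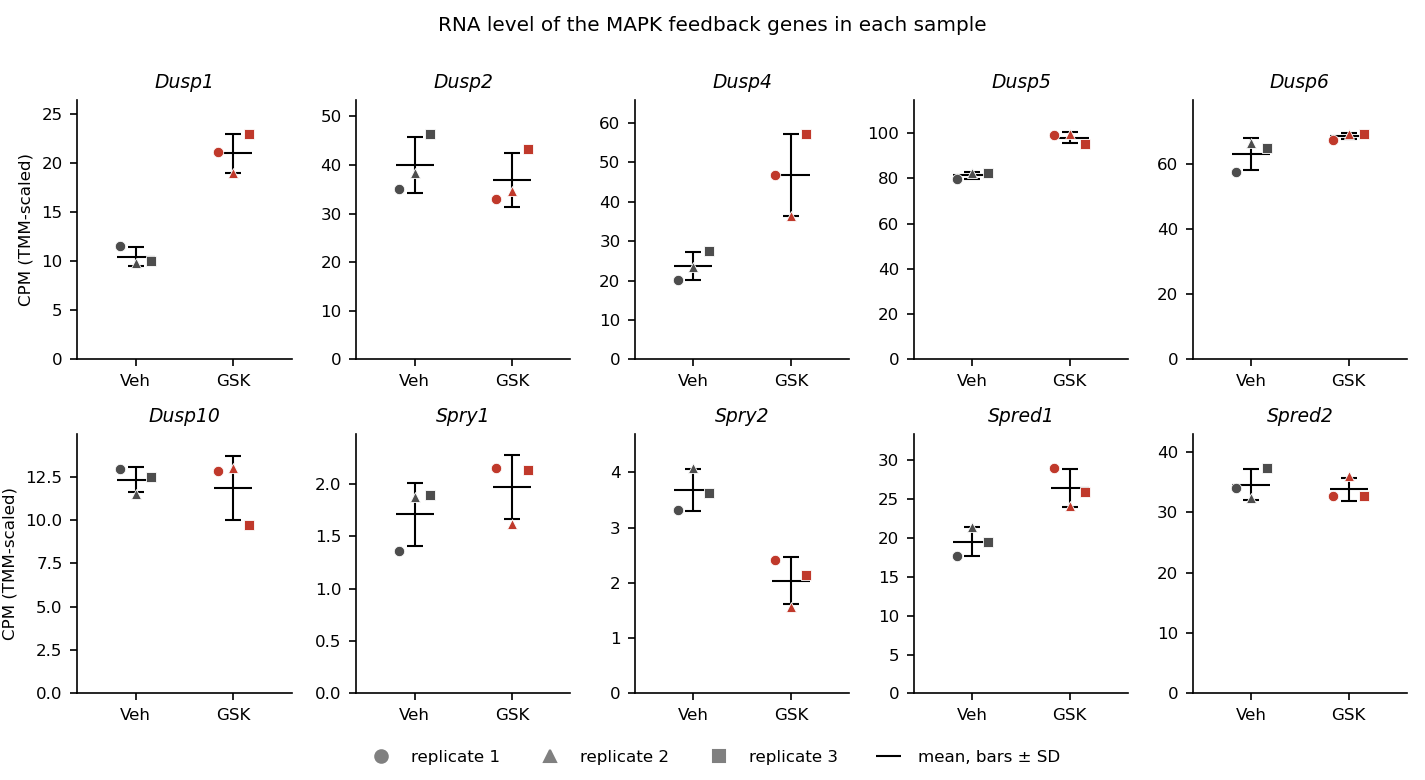
Each panel plots the CPM of 1 gene (vertical axis from 0) in the 3 Veh and 3 GSK samples, with symbols for the replicate numbers and black bars for the mean ± SD. Dusp1 and Dusp4 rise to means of 20.97 and 46.8 CPM with GSK, Spry2 drops from 3.67 to 2.04 CPM, and the samples of Dusp2, Dusp10, Spry1 and Spred2 overlap between groups.

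The Sprouty genes were the lowest of the 10 and did not move together. Sprouty proteins are membrane-associated inhibitors that are phosphorylated after receptor stimulation and hold back Ras and RAF. Spry2 (Entrez gene 24064, chr14:105891947-105896819, minus strand, 2 exons) had 61, 76 and 69 counts in the Veh replicates and 46, 31 and 41 counts in the GSK replicates. In CPM these were 3.32, 4.08 and 3.63 against 2.41, 1.57 and 2.14. Every GSK sample was below every Veh sample, with GSK replicate 2 the lowest. Spry2 was 1.80-fold lower in GSK (log2 fold change -0.85 with a standard error of 0.23, adjusted p = 0.013), the only fall past both thresholds among the 10. Without Veh replicate 2 its adjusted p was 0.052, with a log2 fold change of -0.77.

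Spry1 (Entrez gene 24063, chr3:37639947-37644599, plus strand), the relative of Spry2 known to be induced in activated T cells, had 25, 35 and 36 counts in the Veh replicates and 41, 32 and 41 in the GSK replicates. In CPM it was at 1.36, 1.88 and 1.89 against 2.15, 1.62 and 2.14, and the groups overlapped. Its log2 fold change of 0.20 (standard error 0.26) did not pass (adjusted p = 0.60). The fold interval from 0.774 to 1.71 was the widest of the 5 genes that did not pass and included a rise of 1.5-fold.

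Spry4, a further family member that is not among the 10, rose. It had 13, 25 and 15 counts in the Veh replicates and 55, 38 and 43 in the GSK replicates, or 0.945 ± 0.345 and 2.35 ± 0.491 CPM. Its log2 fold change was 1.31 with a standard error of 0.32 (adjusted p = 0.0074), and the fold interval ran from 1.54 to 3.98. Spry3 had at most 3 counts in any sample and was not tested. Within a sample, where library scaling cancels, the ratio of Spry4 to Spry2 per transcript length was 0.0935, 0.144 and 0.0954 in the Veh replicates and 0.525, 0.538 and 0.460 in the GSK replicates. Per transcript length, Spry2 was the higher of the pair in all 6 samples, while in counts, which favor the longer transcript of Spry4, Spry4 was above Spry2 in all 3 GSK samples.

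The Spred proteins bind neurofibromin, the Ras GTPase-activating protein, and bring it to the membrane. Spred1 (Entrez gene 114715, chr2:117121071-117182279, plus strand, 7 exons) was at 17.6, 21.4 and 19.5 CPM in the Veh replicates and at 29.0, 24.1 and 26.0 CPM in the GSK replicates. The groups did not overlap. Spred1 rose 1.35-fold (log2 fold change 0.43 with a standard error of 0.094, adjusted p = 0.0039), with an interval from 1.17 to 1.55 that reaches past 1.5-fold at its upper end. Spred2 (Entrez gene 114716, chr11:19924442-20024026, plus strand, 6 exons) was at 34.1, 32.3 and 37.3 CPM in the Veh replicates and at 32.7, 36.0 and 32.7 CPM in the GSK replicates. These samples were mixed between groups, and a log2 fold change of -0.032 (standard error 0.074) did not pass (adjusted p = 0.78), with a fold interval from 0.875 to 1.09. Spred3, the remaining member of that family, had levels of 2.30 ± 0.383 (Veh) and 1.98 ± 0.488 CPM (GSK) and did not pass (adjusted p = 0.57). Its exons share 202 bases with those of Ggn.

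**Figure D2:**
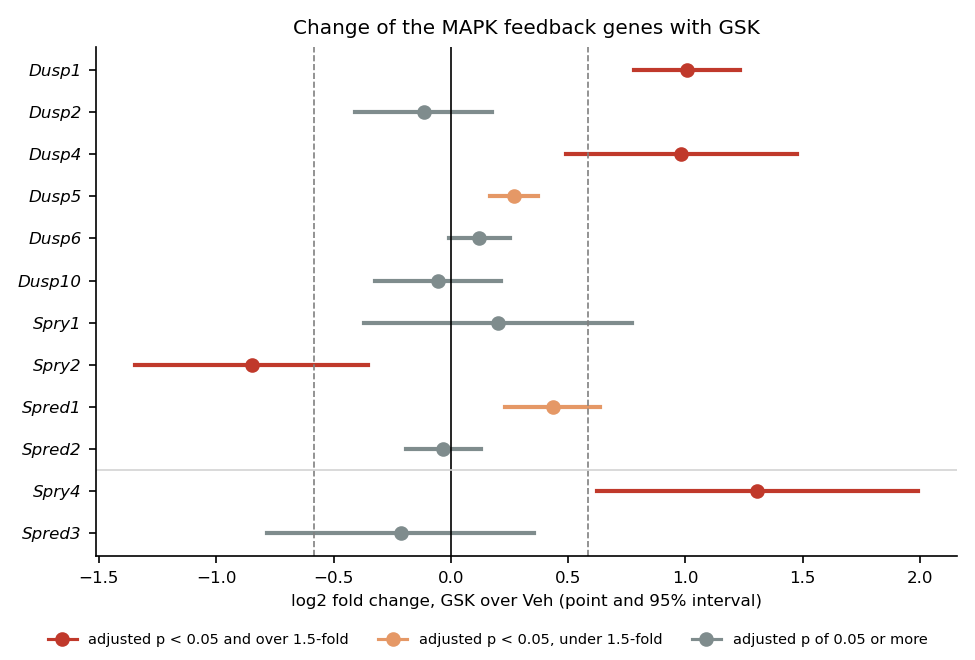
Points show the log2 fold change (GSK over Veh, horizontal axis) of the 10 genes and, below the grey line, of Spry4 and Spred3, with bars for the 95% interval and dashed lines at 1.5-fold in each direction. Dusp1 at 1.01, Dusp4 at 0.98 and Spry4 at 1.31 lie to the right, Spry2 at -0.85 lies to the left, and the intervals of Dusp2, Dusp6, Dusp10, Spry1, Spred2 and Spred3 include 0.

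Counted by sample order alone, the groups did not overlap for 6 of the 10 genes, against 46.7% of all genes tested. For 5 of these all GSK samples were above all Veh samples and for 1 they were below, against 23.7% and 23% of all genes tested. Dusp6 was among those above without passing the test. The median log2 fold change of the 10 genes was 0.16, and 6 of the 10 values were positive, against 49.3% over all genes tested. Summed over the 10 genes, the level was 273 to 306 CPM in the Veh samples and 335 to 361 CPM in the GSK samples. Dusp5 and Dusp6 alone made up between 45.6% and 51.0% of this sum.

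To set the genes side by side, CPM were divided by the length of the longest GENCODE M21 transcript with a RefSeq match. In Veh, Dusp5 led with 32.9 ± 0.571 CPM per kilobase. Dusp2 with 24.7 ± 3.59 and Dusp6 with 22.6 ± 1.73 CPM per kilobase followed, and these were the only neighbors in the Veh order whose samples overlapped. Spred2 stood at 12.1 ± 0.893, Dusp4 at 8.64 ± 1.32 and Dusp1 at 5.25 ± 0.478 CPM per kilobase. Dusp10 at 4.42 ± 0.259, Spred1 at 3.24 ± 0.314, Spry2 at 1.76 ± 0.183 and Spry1 at 0.689 ± 0.122 CPM per kilobase came last. In GSK, Dusp4 at 17.1 ± 3.82 CPM per kilobase was above Spred2 at 11.8 ± 0.665, and its samples overlapped those of Dusp2 at 22.8 ± 3.42. Dusp1 reached 10.5 ± 1.01 CPM per kilobase, with samples that overlapped those of Spred2. Spry2 at 0.978 ± 0.207 CPM per kilobase had come down to the range of Spry1 at 0.794 ± 0.122. With the length of all annotated exons together, Dusp1 stood at 3.15 CPM per kilobase in Veh, below Dusp10 at 4.05, and Dusp2 at 20.0 fell just below Dusp6 at 20.1. Spred2, at 7.48 CPM per kilobase, then came below Dusp4.

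**Figure D3:**
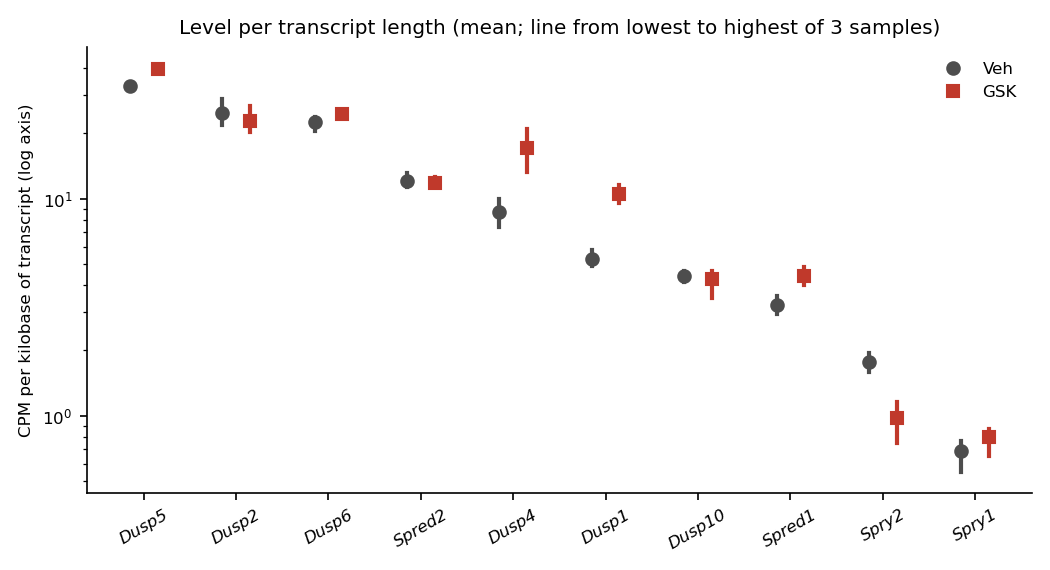
The level of each of the 10 genes in CPM per kilobase of transcript is plotted on a log axis, ordered by the Veh mean, with the marker at the mean of 3 samples and a line from the lowest to the highest sample (circles Veh, squares GSK). Dusp5 is the highest in both groups at 32.9 and 39.7 CPM per kilobase, Dusp4 and Dusp1 move up with GSK, and Spry2 moves down toward Spry1.

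Of 16 other dual-specificity phosphatase genes 11 were tested. By edgeR 0 of the 11 passed upward and 3 downward, against 16.6% and 15.5% of all genes tested. The upward count was also 0 at an unadjusted p under 0.05 and 0 with DESeq2. Whether these few genes differ from the shares over all genes was not tested. Dusp7, which encodes a cytoplasmic ERK phosphatase related to that of Dusp6, fell from 21.3 ± 0.801 to 16.3 ± 0.700 CPM, with a log2 fold change of -0.39 and a standard error of 0.081 (adjusted p = 0.0033). Dusp23 and Dusp3 encode small phosphatases of broader substrate range. Dusp23 fell from 1.75 to 0.848 CPM (log2 fold change -1.04, adjusted p = 0.022), and Dusp3 from 7.24 to 5.21 CPM (log2 fold change -0.47, adjusted p = 0.048). With DESeq2, Dusp23 (0.052) and Dusp3 (0.073) no longer passed, which left Dusp7. By edgeR the adjusted p of Dusp23 was 0.073 without GSK replicate 2, and that of Dusp3 was 0.21 without Veh replicate 2. Of 14 alternatives, Dusp23 did not pass in 7 and Dusp3 did not pass in 9. Dusp23 had only 12 to 33 counts per sample. The median log2 fold change of the 11 genes was -0.099, against -0.0039 over all genes tested.

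Among 17 other genes that restrain Ras and ERK, 2 passed the test upward and 3 downward, counts near the 16.6% and 15.5% of all genes tested, and the median log2 fold change was -0.053. Rasa3, a GTPase-activating protein for Ras and Rap, fell from 254 ± 23.2 to 139 ± 23.8 CPM, with a log2 fold change of -0.87 and a standard error of 0.14 (adjusted p = 0.0072). Lrig1, a membrane protein that limits receptor tyrosine kinases, fell from 9.16 to 5.94 CPM (log2 fold change -0.62, adjusted p = 0.0061). Cblb, a ubiquitin ligase that dampens T-cell receptor signaling, fell from 230 to 172 CPM (log2 fold change -0.42, adjusted p = 3.9e-04). Rasa2, another GTPase-activating protein of Ras, rose from 76.7 to 96.0 CPM (log2 fold change 0.32, adjusted p = 3.4e-04). Dok2, an adaptor that recruits such proteins, rose from 189 to 245 CPM (log2 fold change 0.37, adjusted p = 2.1e-04).

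Of 48 tested genes from the receptor relay, the kinase cascade and the MAPK-activated kinases, 9 passed upward and 10 downward, and 29 did not pass. These counts lie near the shares over all genes tested, 16.6% higher and 15.5% lower, and the median log2 fold change of the 48 genes was 0.0068. Map2k6 was the one gene of the 48 past 1.5-fold as well. It encodes MKK6, an activator of p38, and fell from 14.1 ± 1.95 to 6.66 ± 0.866 CPM, with a log2 fold change of -1.08 and a standard error of 0.14 (adjusted p = 1.3e-04). Mapk3, which encodes ERK1, fell from 85.0 to 65.6 CPM (log2 fold change -0.37, adjusted p = 0.0011). Map3k1, a kinase above JNK, fell from 144 to 97.9 CPM (log2 fold change -0.55, adjusted p = 3.2e-05). In the kinase cascade list 3 of 24 genes were higher and 4 lower. The 3 that were higher, named here after their values were seen, act in the JNK and p38 branches. Map2k4, which encodes the JNK activator MKK4, rose from 89.3 to 104 CPM (log2 fold change 0.22, adjusted p = 0.0049). Map3k7, which encodes TAK1, had a log2 fold change of 0.16 (adjusted p = 0.014, or 0.054 without Veh replicate 2). Map2k3, which encodes the p38 activator MKK3, had one of 0.19 (adjusted p = 0.037). Its adjusted p lay between 0.073 and 0.15 without Veh replicate 1, Veh replicate 3, GSK replicate 1 or GSK replicate 3.

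In the receptor relay, 4 of 15 genes were higher and 3 lower, against 16.6% and 15.5% of all genes tested. Lat, the scaffold below the T-cell receptor, rose from 345 to 406 CPM (log2 fold change 0.23, adjusted p = 0.0034). Plcg1, which encodes phospholipase C gamma, fell from 235 to 196 CPM (log2 fold change -0.26, adjusted p = 0.0032), and Rasgrp2, an exchange factor for Rap, fell from 226 to 177 CPM (log2 fold change -0.36, adjusted p = 1.4e-04). Of 9 MAPK-activated kinases, 2 were higher and 3 lower, against the same shares. Only 1 was lower when any 1 Veh replicate, GSK replicate 1 or GSK replicate 3 was left out. Mapkapk2 and Mapkapk3, which act below p38, rose with log2 fold changes of 0.22 and 0.25 (adjusted p = 0.0039 and 0.0038), and Rps6ka5, which encodes MSK1, fell (log2 fold change -0.26, adjusted p = 0.012).

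**Figure D4:**
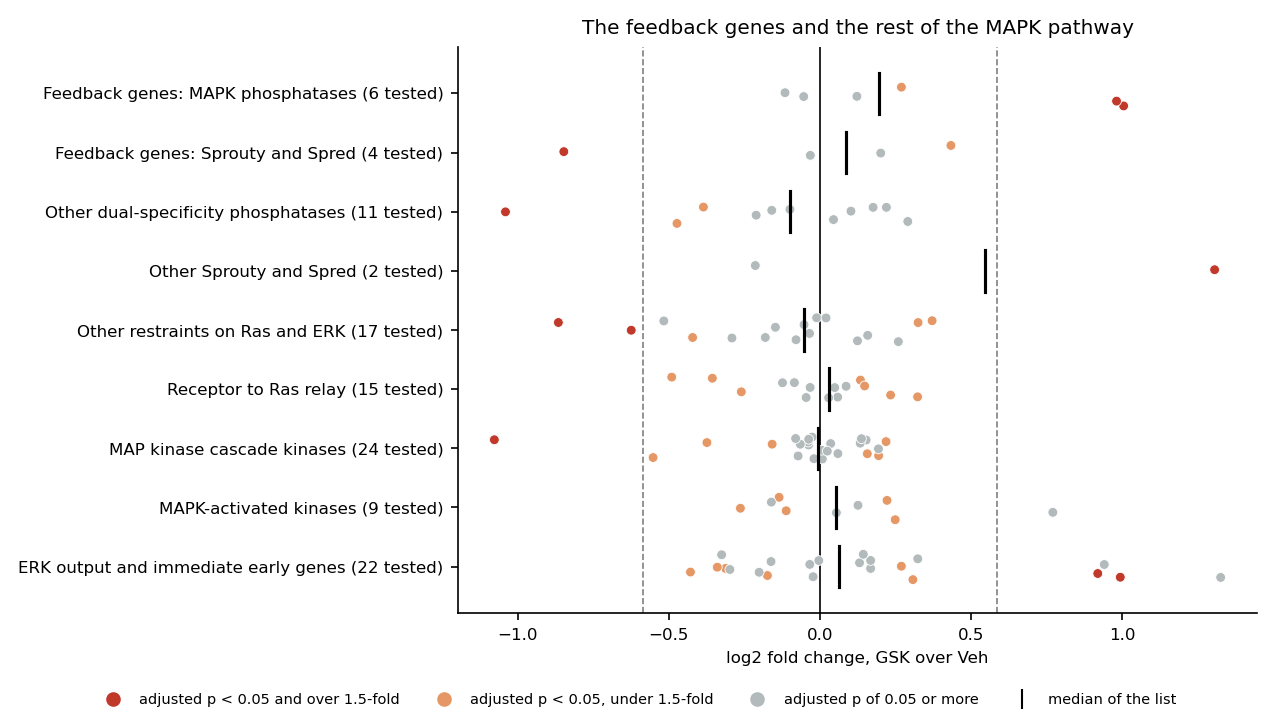
Each dot is the log2 fold change (GSK over Veh) of 1 tested gene, arranged by list, with black ticks at the list medians and dashed lines at 1.5-fold. The feedback Dusp genes have a median of 0.20 and the other dual-specificity phosphatases one of -0.099, and Map2k6 at -1.08 is the lowest gene of the relay and kinase lists.

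Of 22 tested ERK output and immediate early genes, 4 rose and 4 fell, counts near the 16.6% and 15.5% of all genes tested, and the median log2 fold change was 0.064. Fosl1, which encodes an AP-1 subunit, rose from 0.749 to 1.498 CPM (log2 fold change 0.99, adjusted p = 0.028), and Egr2, a zinc finger factor induced by antigen, from 1.19 to 2.27 CPM (log2 fold change 0.92, adjusted p = 0.039). With DESeq2, Fosl1 (0.085) and Egr2 (0.062) did not pass, and without Veh replicate 1 their adjusted p was 0.0999 and 0.14 by edgeR. Fosl1 and Egr2 each did not pass in 7 of 14 alternatives, at 12 to 33 and 15 to 49 counts per sample. Srf, which encodes the factor that binds the CArG box, rose from 71.0 ± 0.982 to 87.8 ± 4.98 CPM (log2 fold change 0.31, adjusted p = 9.4e-04). Ier5 rose with a log2 fold change of 0.27 (adjusted p = 0.0053), and Fosl2 fell with one of -0.31 (adjusted p = 9.4e-04). Egr1, an early target of ERK named here after its values were seen, had the largest log2 fold change of this list, 1.33 (standard error 0.46), without passing (adjusted p = 0.093). It was at 4.90, 5.203 and 11.1 CPM in the Veh replicates and at 19.5, 10.9 and 23.0 CPM in the GSK replicates, so that the groups overlapped between Veh replicate 3 and GSK replicate 2. Without Veh replicate 3 its adjusted p was 0.024, and with DESeq2 it was 0.028. Without Veh replicate 1 it was 0.24 by edgeR. Of 14 alternatives, Egr1 passed in 4 and did not pass in 10.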

How the data were processed

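RNA-seq was read from 6 samples, 3 per group. The authors trimmed the reads (Trimmomatic), mapped them to GRCm38 with hisat2 (v2.1.0) and counted reads per gene with HTSeq-count (v0.11.2). The deposited values are these counts, not normalized. The annotation release and strand setting are not given in the sources used here. Libraries were stranded and poly(A)-enriched.

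Counts were compared in R (v4.3.3) with edgeR (v4.0.16): TMM scaling, the filterByExpr filter, and the quasi-likelihood test with robust estimation, with p-values adjusted (Benjamini-Hochberg) over all genes tested. DESeq2 (v1.42.0) was an alternative. Genes were called at the study's thresholds, 0.05 for the adjusted p and 1.5 for the fold change. Standard errors were derived from the test statistic, and intervals are 95%. On simulated counts for 11698 genes of GSK against Veh, 81.8% of 2-fold and 100% of 4-fold changes were recovered, with 12 false calls. The simulated spread came from the same fit, 200 genes were changed, and no replicate effect was included. These shares cover genes of all levels and do not give the recovery for low genes such as Spry1.

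The 10 genes and all lists were chosen with earlier results of these data known. From each other list, the text names up to 3 genes past both thresholds or, with fewer, also the 3 with the smallest p among those at the adjusted p. Spry4, Spry3 and Spred3 were also named. Coordinates and promoters are from RefSeq GRCm38.p6, matched by Entrez identifier, and exons from GENCODE M21. Nothing says that same-numbered cultures came from 1 mouse. The p-values measure the spread between these cultures. Alternatives were DESeq2, RLE and upper quartile scaling, no filter and a mean count of 10, a replicate block, the test without robust estimation, a test against 1.5-fold, and leaving out each sample.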

Additional observations from a re-analysis of the deposited data

How the results depend on the processing

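Of the 560 values that 40 named genes took under 14 alternatives, 489 kept their direction and side of the threshold, 64 lost and 4 gained an adjusted p under 0.05, and 3 turned. The last were log2 fold changes of genes that had not passed: with 1 sample left out, Dusp2 ran from -0.25 to 0.0062, Spred2 from -0.081 to 0.028 (both highest without Veh replicate 3) and Dusp10 from -0.13 to 0.067 (highest without GSK replicate 3). The losses gathered in a few genes: 9 for Dusp3, 7 each for Dusp23, Egr2 and Fosl1, and 6 for Map2k3. Every other gene had at most 2, and these counts include the test against 1.5-fold. Testing the fold change against 1.5 (edgeR), a stricter question by construction, left 69 genes higher and 65 lower over all genes tested. Of the feedback genes it left 1 higher, Dusp1, and 0 lower, where 1 had an unadjusted p under 0.05. Of the other lists it left 0 higher, where 2 had an unadjusted p under 0.05, and 1 lower. With 1 sample left out, the feedback genes past both thresholds numbered 1 to 2 higher and 0 to 1 lower, and at the adjusted p alone 3 to 4 higher and 0 to 1 lower. The lowest of these counts came without Veh replicate 2, where Spry2 kept an unadjusted p under 0.05. DESeq2 gave 2 and 1 past both thresholds. The other lists together went from 16 higher and 20 lower to between 11 and 15 higher and between 13 and 19 lower, with 13 without each of the Veh replicates. Over all genes tested, 224 to 291 were called higher and 403 to 547 lower.

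With a replicate block in the model, 2 feedback genes were called higher and 1 lower, and at the adjusted p 4 and 1. Veh and GSK samples with the same number, each taken relative to its group mean, had correlations across genes of -0.052, -0.081 and 0.16. Without values for differently numbered samples beside them, these correlations cannot decide whether the numbers pair the samples. In the fit with the block Egr1 passed (adjusted p = 9.1e-04), and Egr2 (0.052) and Dusp3 (0.081) did not. Depth limits the precision for low genes: Spry1 had 25 to 41 counts per sample and Spry2 31 to 76.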
